A study of Mus musculus with 14 samples.

Results

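The genes described here are 10 well-known targets of the transcription factor p53, chosen by name from the 52459 genes of the count table: Mdm2, Bax, Bbc3, Pmaip1, Ccng1, Sesn1, Zmat3, Tnfrsf10b, Plk2 and Perp. All 10 were in the table and all 10 passed the filter on low counts. RNA was sequenced from cells of dispersed pancreatic islets of male C57BL/6J mice, an inbred laboratory strain, aged 7 months. Flow cytometry had divided the cells by their beta-galactosidase activity at acidic pH, a lysosomal activity used as a marker of cellular senescence, into positive cells (7 libraries) and negative cells (7 libraries). The sources name no treatment and no genetic change in either group, and no sort for a particular islet cell type, so each library can hold every cell type of the islet preparation. They do not say whether the libraries, numbered 1 to 7 in both groups, came from separate animals or from pools, so the tests measure the spread between libraries.

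p53 is a transcription factor that accumulates after DNA damage and other stress and switches on genes that halt the cell cycle, repair DNA or start cell death. Mdm2 closes a feedback loop, since p53 induces it and its product marks p53 for degradation. In senescent cells p53 and its target Cdkn1a, the cell cycle inhibitor p21, can hold the cell cycle arrest in place, which is why p53 targets are often measured beside senescence markers.

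p53 binds DNA as a tetramer, and each pair of its subunits recognises a decamer of purines, a C, a pair of A or T bases, a G and pyrimidines, here called the p53 decamer. Promoter stretches that hold such a decamer are shown as matches to this pattern and not as known sites of p53 binding. Windows of 300 bases, from 250 before to 50 after a RefSeq start site (GRCm38.p6), were matched for 6 of the 10 members: Mdm2, Bax, Bbc3, Ccng1, Sesn1 and Plk2. The 6 matched members had 9 windows. No window was searched for Pmaip1, Tnfrsf10b, Zmat3 or Perp, so whether a decamer stands near their start sites was not tested. An exact decamer stood in 1 window each of Mdm2, Bax, Ccng1 and Sesn1, and in 8.36% of all 32851 windows searched. The general pattern of the decamer reads the same on both strands, whereas the 4 matched decamers do not. The stretches run 5′ to 3′ on the strand of the gene, from base -225 to base -151 before the start site, with the decamer in capitals; none of their bases lies in an exon of the gene in GENCODE M21. They lie at chr10:117710909-117710983 (Mdm2, minus strand), chr7:45467049-45467123 (Bax, minus strand), chr11:40755437-40755511 (Ccng1, minus strand) and chr10:41887214-41887288 (Sesn1, plus strand, its downstream start site).
Mdm2: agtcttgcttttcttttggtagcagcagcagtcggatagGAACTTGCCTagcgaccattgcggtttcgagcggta
Bax: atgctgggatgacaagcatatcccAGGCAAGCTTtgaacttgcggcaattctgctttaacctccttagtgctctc
Ccng1: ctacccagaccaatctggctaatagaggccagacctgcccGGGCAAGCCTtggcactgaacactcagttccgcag
Sesn1: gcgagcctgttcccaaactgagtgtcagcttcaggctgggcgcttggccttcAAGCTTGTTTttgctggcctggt
In Ccng1 the decamer is preceded, with a spacer of 0 bases, by another that differs from the pattern at 1 base (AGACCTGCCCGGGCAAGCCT). In Bax it is followed after a spacer of 1 base by another, with 2 mismatches over the pair (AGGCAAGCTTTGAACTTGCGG). Pairs of decamers with at most 2 mismatches and a spacer of at most 13 bases were found in 1 window each of Bax, Ccng1 and Sesn1, and in 4.09% of all windows.

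Plk2, the member with the most reads among those that rose in positive cells, had no exact decamer in its window. The window held the cAMP response element TGACGTCA, a motif that reads the same on both strands, starting 62 bases before the start site and found in 1.79% of all windows. Its 250 bases before the start site (chr13:110394794-110395043, plus strand) are shown with that element in capitals.
Plk2: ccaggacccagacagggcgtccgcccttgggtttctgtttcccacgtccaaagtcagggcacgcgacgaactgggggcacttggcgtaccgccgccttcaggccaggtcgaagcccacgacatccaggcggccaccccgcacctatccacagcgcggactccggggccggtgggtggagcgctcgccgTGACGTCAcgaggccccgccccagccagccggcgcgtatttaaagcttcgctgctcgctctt
A match of letters is a description of the window. Binding of p53 or of another factor was not measured here.

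Of the 10 members, 4 rose in positive cells, 0 fell and 6 were not called. The 4 were Pmaip1, Tnfrsf10b, Plk2 and Perp. A gene was called where its adjusted p was below 0.05 in the quasi-likelihood test of edgeR, with the adjustment of Benjamini and Hochberg made over all 16350 genes tested. Over all genes, 6.4% were called higher, 1.63% lower and 8.03% in either direction. The median log2 fold change of the 10 members (positive against negative) was 0.09, and that of all genes tested was 0.00. The abundant members Ccng1, Mdm2 and Bax were all among those not called. When the number shared by a negative and a positive library was added to the fit as a block, the same 4 rose and Sesn1 fell, where 11.8% of all genes were called higher, 7.77% lower and 19.6% in either direction. The 4 libraries numbered 6 and 7 had the highest levels of macrophage and endothelial markers in each group. Without them 2 members rose, Tnfrsf10b and Plk2, and 0 fell, against 3.28% of all genes higher and 0.275% lower. Hereafter, ± stands for the SD over the 7 libraries of a group after a level and for the SE after a log2 fold change.

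The groups also differed in markers of cell types, whose part in the changes of the members was not tested. Of 18 macrophage and dendritic cell markers, 17 were tested and 17 rose (16 with the block; median log2 fold change 6.09), and of 15 endothelial markers 15 rose (median 4.87). The summed level of the macrophage list was 18.5 to 29.6 CPM (CPM is the count per 1000000 reads of the scaled library) in negative and 108 to 1075 CPM in positive libraries. For endothelial markers it was 4.79 to 75.4 CPM and 418 to 1404 CPM. No marker of either list was at 0 counts over all negative libraries, where the mean was at least 1 CPM for 4 of 18 macrophage and 8 of 15 endothelial markers. The 12 beta cell markers summed to 103689 to 154791 CPM in negative and 99589 to 129894 CPM in positive libraries. Of them 2 fell (7 with the block), with a median log2 fold change of -0.30, and of 12 acinar markers tested 5 fell (11 with the block). In both fits 5 of 11 tested markers of pericytes, stellate cells and fibroblasts rose (median 1.19 with group only), as did 2 of 5 markers of delta and PP cells (median 1.06). Total counts were 11060144 to 23045934 reads in negative and 15585779 to 24577025 reads in positive libraries, and mitochondrial transcripts took 1.04 to 1.65% and 1.29 to 2.38% of them. In such sorted mixtures a change in the number of cells of a type and a change in RNA per cell cannot be told apart.

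**Figure D1:**
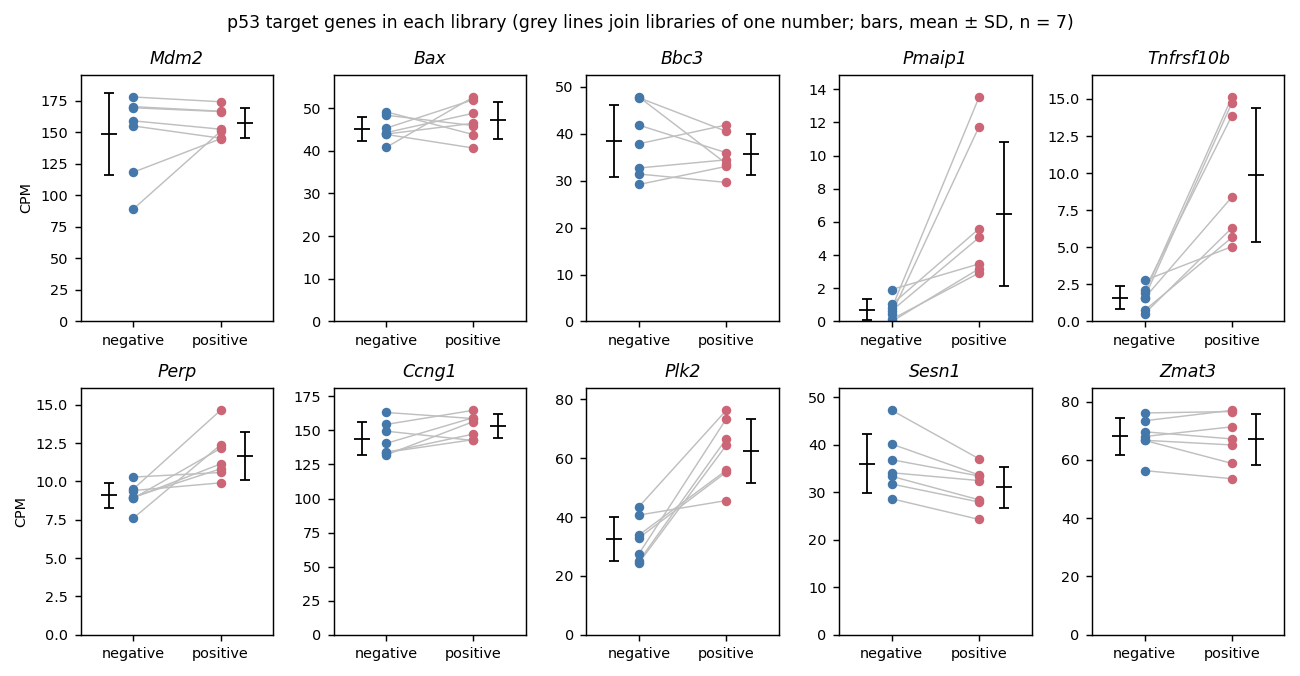
Level of each of the 10 genes in CPM (y axis from 0) in the 7 negative (blue) and 7 positive (red) libraries; grey lines join libraries of the same number, and black bars give the mean ± SD. The positive points of Pmaip1, Tnfrsf10b and Plk2 lie above all negative points, whereas those of the other 7 genes overlap with them.

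Per unit of length, the members spanned a wide range of levels. In negative cells Ccng1 stood highest, at 105 ± 10.8 TPM (TPM divides counts by exon length before scaling to the library), followed by Mdm2 at 75.5 ± 18.2, Bax at 73.5 ± 5.38 and Bbc3 at 46.5 ± 10.1 TPM. Sesn1 (23.1 ± 3.32), Plk2 (18.6 ± 4.22), Zmat3 (15.3 ± 1.78) and Perp (11.98 ± 1.40 TPM) came next, and Tnfrsf10b (0.760 ± 0.378) and Pmaip1 (0.679 ± 0.633 TPM) were lowest. Between neighbours in this order, the ranges of mean ± SD overlapped for Mdm2 and Bax, Sesn1 and Plk2, Plk2 and Zmat3, and Tnfrsf10b and Pmaip1, and not for the others. In positive cells the first 4 were in the same order, Ccng1 at 115 ± 7.30, Mdm2 at 81.7 ± 7.38, Bax at 78.9 ± 6.90 and Bbc3 at 44.2 ± 5.23 TPM. Plk2 followed at 36.6 ± 5.79 TPM, above Sesn1 (20.5 ± 2.67), Perp (15.7 ± 1.95) and Zmat3 (15.5 ± 2.30 TPM), and Pmaip1 (6.26 ± 4.17) and Tnfrsf10b (4.76 ± 2.14 TPM) were again lowest. The 2 members with the largest fold changes were thus those with the lowest levels in both groups.

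Mdm2 encodes the ubiquitin ligase that turns p53 over (chromosome 10, 117688875 to 117710758, GRCm38). Its level was lowest at 89.2, median 159 and highest at 178 CPM in negative libraries, and 145, 153 and 174 CPM in positive ones. The positive libraries lay inside the negative range, and the low end of that range was set by negative 1 (89.2) and negative 2 (118 CPM). The log2 fold change was 0.08 ± 0.13 (95% interval -0.18 to 0.35; adjusted p = 0.761 by edgeR). By pair of equal number, Mdm2 was lower in the positive library in 5 of 7 pairs, with log2 ratios of -0.03 to -0.09, and higher in pairs 1 and 2 (0.76 and 0.29). Without negative 1 the log2 fold change was -0.02. Trp53, which encodes p53 itself, was at 38.2 ± 6.61 and 40.5 ± 6.42 CPM (log2 fold change 0.08 ± 0.13, and -0.01 without negative 1), and it too was lowest in negative 1, at 24.5 CPM.

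Of the genes of cell death, those that act on mitochondria are given first and those of the cell surface after them. Bax, which opens the outer membrane of mitochondria (chromosome 7, 45461697 to 45466898), was at 40.8, 44.2 and 49.1 CPM (lowest, median, highest) in negative and 40.6, 46.4 and 52.6 CPM in positive libraries. The groups overlapped almost entirely, with a log2 fold change of 0.07 ± 0.06 (95% interval -0.07 to 0.20). An annotated protein-coding gene on the same strand, Gm45808, shares 192 exonic bases with Bax, so how reads there were counted is uncertain. Bbc3, which encodes the BH3-only protein Puma (chromosome 7, 16308393 to 16318205), was at 29.2, 37.9 and 47.8 CPM in negative and 29.6, 34.5 and 41.9 CPM in positive libraries. Its log2 fold change was -0.11 ± 0.12 (95% interval -0.35 to 0.14), lower in 4 of 7 pairs.

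Pmaip1 encodes Noxa, a small BH3-only protein that binds and neutralises Mcl1 (chromosome 18, 66458533 to 66465565). It was at 0, 0.648 and 1.92 CPM (lowest, median, highest) in negative libraries and at 2.92, 5.07 and 13.5 CPM in positive ones. The groups did not overlap, which held for 3.5% of all genes in this direction, and the highest positive values were in positive 6 (13.5) and positive 7 (11.8 CPM). The log2 fold change was 3.14 ± 0.57 (adjusted p = 0.00233 by edgeR; 8.83-fold, 95% interval 3.78 to 20.6), and the positive library was higher in 7 of 7 pairs, as it was for 11.1% of all genes. The negative level rested on 90 reads over 7 libraries, with 0 in negative 5, a count that allows up to 0.202 CPM there. Without the libraries numbered 6 and 7, the log2 fold change was 2.38 and the call was lost (adjusted p = 0.0585 by edgeR). Mcl1, the partner of Noxa, had a log2 fold change of 0.22 and was called higher only with the replicate block (adjusted p = 0.131 without and 0.0149 with it, by edgeR).

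Tnfrsf10b encodes the death receptor for the ligand TRAIL (chromosome 14, 69767472 to 69784411). In negative libraries it was at 0.530, 1.61 and 2.77 CPM (lowest, median, highest) and in positive libraries at 5.05, 8.39 and 15.1 CPM. All positive values were above all negative ones, with positive 2, 6 and 7 between 13.9 and 15.1 CPM and the other 4 between 5.05 and 8.39 CPM. The log2 fold change was 2.61 ± 0.36 (adjusted p = 0.000247 by edgeR; 6.12-fold, 95% interval 3.60 to 10.4), higher in 7 of 7 pairs, and the call held without any single library (log2 fold change 2.44 to 2.77) and without those numbered 6 and 7 (2.34, adjusted p = 0.00677 by edgeR). The smallest of the pair differences was that of pair 3 (log2 ratio 0.84, against 2.33 to 3.33 in the other 6), in which negative 3 had the highest negative and positive 3 the lowest positive value. Negative 3 also stood apart in markers of pericytes, stellate cells and fibroblasts, which summed to 1466 CPM there and to 16.1 to 73.3 CPM in the other negative libraries. The part of these cells in its Tnfrsf10b level was not tested.

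Other genes of the TRAIL pathway were followed from the list of relatives and partners. The decoy receptors Tnfrsf22 and Tnfrsf23, which bind TRAIL without a death domain, both rose. Tnfrsf22 went from 4.78 ± 0.765 to 10.6 ± 3.50 CPM (a log2 fold change of 1.14 ± 0.19 with an adjusted p = 0.000845 by edgeR) and Tnfrsf23 from 22.2 ± 3.94 to 35.2 ± 9.38 CPM (0.66 ± 0.16, adjusted p = 0.0160 by edgeR). These genes are closely similar neighbours, so the split of reads between them is uncertain. The ligand Tnfsf10 was at 5.64 ± 1.52 and 6.38 ± 1.67 CPM (log2 fold change 0.18 ± 0.20), the adaptor Fadd had a log2 fold change of 0.12, and Casp8, the initiator caspase of death receptors, had 0.29 and was called only with the block (adjusted p = 0.0491 by edgeR).

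Perp encodes a tetraspan membrane protein of cell contacts that p53 induces in dying cells (chromosome 10, 18845020 to 18857073). It was at 7.60, 8.97 and 10.3 CPM (lowest, median, highest) in negative libraries and at 9.90, 11.1 and 14.6 CPM in positive ones. Only positive 4 (9.90 CPM) lay below the highest negative library, negative 3 (10.3 CPM). The log2 fold change was 0.36 ± 0.09 (adjusted p = 0.0258 by edgeR; 1.28-fold, 95% interval 1.12 to 1.48), higher in 7 of 7 pairs, among which pairs 3 and 4 differed by 0.04 and 0.07 on the log2 scale. Of the 4 calls this was the one that rested on single libraries: the adjusted p was 0.0504 to 0.0653 by edgeR when negative 1, 2, 5 or 6 or else positive 1 or 7 was left out. Without all libraries numbered 6 and 7 it was 0.226 by edgeR.

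**Figure D2:**
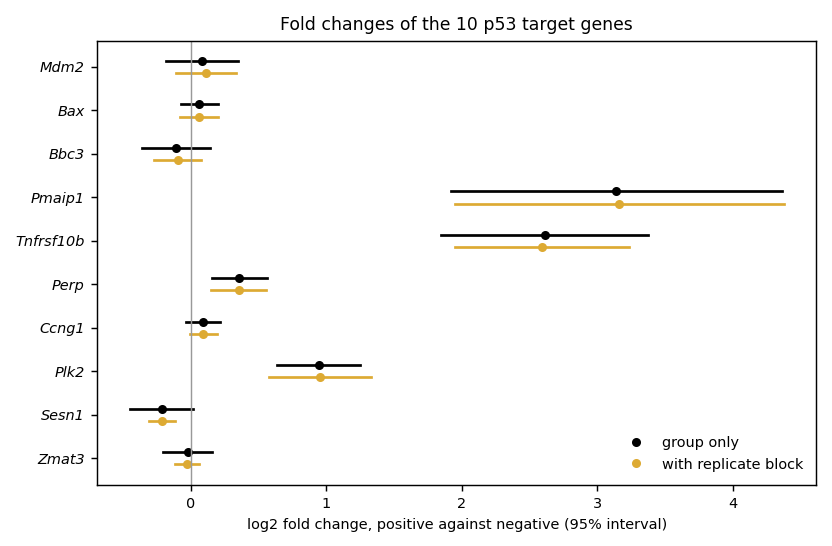
Log2 fold change of the 10 genes in positive against negative cells (x axis) with 95% intervals, from the fit with group only (black) and with the replicate number as a block (yellow). The intervals of Pmaip1, Tnfrsf10b, Plk2 and Perp lie above 0 in both fits, and that of Sesn1 lies below 0 with the block.

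The remaining members act on the cell cycle, growth and RNA. Plk2 encodes a polo-like kinase of centriole duplication that is also induced by serum and by neuronal activity (chromosome 13, 110395046 to 110400844). It was at 24.4, 32.9 and 43.5 CPM (lowest, median, highest) in negative libraries and at 45.6, 64.4 and 76.3 CPM in positive ones. The groups did not overlap, although positive 3 (45.6 CPM) was close to negative 2 (43.5 CPM). The log2 fold change was 0.94 ± 0.14 (adjusted p = 0.000494 by edgeR; 1.93-fold, 95% interval 1.56 to 2.38), higher in 7 of 7 pairs. The call held without any single library (0.87 to 1.01) and without the libraries numbered 6 and 7 (0.77, adjusted p = 0.0204 by edgeR). With 8405 reads in positive and 3769 in negative libraries, Plk2 was the best covered of the 4 genes that rose. None of its relatives was called, with 0.01 for Plk1, 0.05 for Plk3 and 0.14 for Plk4 on the log2 scale.

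Because Plk2 and several other members also answer to stimuli other than p53, immediate early genes and genes of the integrated stress response are given beside them. Of 18 immediate early genes, 1 rose, Ier3, from 9.24 ± 2.62 to 26.8 ± 9.17 CPM, and 0 fell, a share near the 6.4% and 1.63% of all genes. Their median log2 fold change was -0.00. The most abundant of them, Jun, Egr1 and Fos, were not called (0.01, -0.22 and -0.61 on the log2 scale). Of 14 stress response genes, 2 rose, Slc7a11 (1.05) and Ddit4 (0.46), and 0 fell, against the same shares of all genes, and the median was 0.21. With the block, 10 of the 14 rose, Sesn2 among them, against 11.8% of all genes. The most abundant, Atf4, Atf5 and Ddit3, had 0.17, -0.01 and 0.30.

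Ccng1, which encodes cyclin G1 (chromosome 11, 40748552 to 40755311), was at 132, 140 and 163 CPM (lowest, median, highest) in negative and 143, 157 and 165 CPM in positive libraries. Its log2 fold change of 0.09 ± 0.06 had a 95% interval of -0.04 to 0.22, so that a rise above 1.16-fold lay outside the interval. Zmat3, which encodes a zinc finger protein that binds RNA and acts on splicing (chromosome 3, 32334792 to 32366014), was at 56.3, 68.0 and 76.1 CPM and 53.5, 67.2 and 77.0 CPM. The groups covered the same range, with a log2 fold change of -0.02 ± 0.09 (95% interval -0.20 to 0.16).

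Sesn1 encodes a sestrin, a stress protein that restrains the growth kinase complex mTORC1 (chromosome 10, 41809935 to 41908424). It was at 28.6, 34.1 and 47.2 CPM (lowest, median, highest) in negative and 24.3, 32.4 and 37.0 CPM in positive libraries. The groups overlapped widely, yet the positive library was lower in 7 of 7 pairs, by log2 ratios of -0.07 to -0.35; this was so for 6.93% of all genes. The log2 fold change was -0.21 ± 0.11 without the block (adjusted p = 0.288 by edgeR) and -0.21 ± 0.04 with it (adjusted p = 0.00758 by edgeR). Sesn3 was likewise lower in 7 of 7 pairs (-0.16; adjusted p = 0.372 without and 0.0369 with the block), and Sesn2 was higher in 6 of 7 (0.16; adjusted p = 0.633 without and 0.0412 with the block by edgeR). With the block, Sesn1 and Sesn3 were thus called lower and Sesn2 higher.

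**Figure D3:**
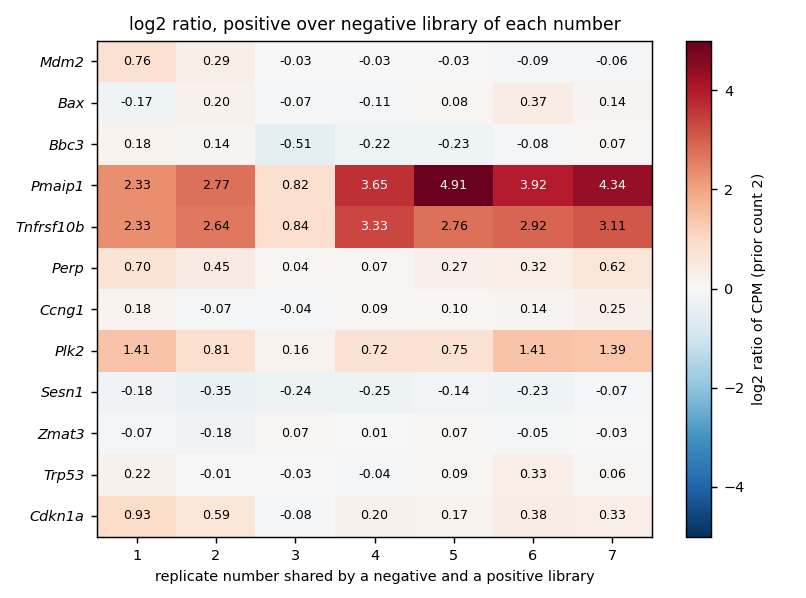
Log2 ratio of the positive over the negative library of each replicate number (columns) for the 10 genes, Trp53 and Cdkn1a (rows), from log2 CPM with a prior count of 2; red marks higher and blue lower in the positive library. Pmaip1, Tnfrsf10b, Plk2 and Perp are above 0 and Sesn1 is below 0 in all 7 columns, and column 3 holds the smallest ratio of each of those 4 higher genes.

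The pairs differed from each other in ways that several members shared. Negative 1 was the lowest negative library for Mdm2, Bbc3, Perp and Zmat3 and for Trp53 and Cdkn1a, and it was the highest for Bax. Pair 1 had the largest log2 ratio of Mdm2 (0.76), Perp (0.70), Cdkn1a (0.93) and Bbc3 (0.18), but not of Zmat3 (-0.07) or of Trp53 (0.22, against 0.33 in pair 6). Spread between libraries, as the coefficient of variation, ran in negative cells from 6.35% (Bax) to 90.0% (Pmaip1) and in positive cells from 5.71% (Ccng1) to 66.7% (Pmaip1). Mdm2 varied by 22.0% in negative and 7.44% in positive libraries.

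The members were set against marker scores (mean log2 CPM of 17 macrophage or 15 endothelial markers) within each group. In all, 40 relations were computed, of 10 members, 2 scores and 2 groups, and p-values were adjusted over them. In 3 of the 4 sets of scores the libraries numbered 6 and 7 formed a cluster of their own, and no correlation is given for those. They were the macrophage score of the positive libraries (4.94 to 5.45 against 2.21 to 2.77 in the other 5) and both scores of the negative libraries. Pmaip1 and Tnfrsf10b had their highest levels where both scores were highest, in positive 6 and 7, so the relation to the endothelial score is not shown to be particular to that score.

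Over the positive libraries the endothelial score ran from 4.09 to 5.89, and Tnfrsf10b followed it. Pearson r was 0.988 (n = 7, exact permutation p = 0.000198, adjusted 0.00794, two-sided) and Spearman rho was 1 (exact permutation p = 0.000397, adjusted 0.0159), the smallest p-values that 7 libraries can give. Without positive 6 and 7, the libraries farthest from the median score, r was 0.993 over the other 5 (exact permutation p = 0.00833, adjusted 0.333). That is the smallest p-value that 5 libraries can give, so its adjusted value cannot decide whether the relation held without positive 6 and 7. For Pmaip1, r was 0.912 and rho 0.821 (exact permutation p = 0.00813 and 0.0341, adjusted 0.0833 and 0.273), with r = 0.722 without positive 6 and 7. Plk2 had r = 0.829 and rho = 0.821 (exact permutation p = 0.0258 and 0.0341, adjusted 0.206 and 0.273), with r = 0.942 without them. Perp had r = 0.634 and rho = 0.643 (exact permutation p = 0.119 and 0.139, adjusted 0.471 and 0.370). Bax, which was not called between the groups, had values above those of Perp, with r = 0.707 and rho = 0.679 (exact permutation p = 0.0845 and 0.110, adjusted 0.423 and 0.370). Mdm2, also not called, ran the other way, with r = -0.815 and rho = -0.679 (exact permutation p = 0.0462 and 0.110, adjusted 0.308 and 0.370). Over all 7 positive libraries, the relation of Tnfrsf10b passed the adjustment and those of the other 9 members did not.

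Among the negative libraries, 6 and 7 had the highest endothelial levels, at 75.4 and 67.3 CPM summed over the markers against 4.79 to 11.2 in the other 5. Tnfrsf10b was at 1.90 and 1.61 CPM in them, inside the range of the others, and Plk2 was at 27.5 and 24.4 CPM, among the lowest 3. The endothelial sums of negative 6 and 7 were still below the 418 to 1404 CPM of the positive libraries. The values of these genes there thus do not decide whether the relation holds among negative libraries. Which cells the reads of these genes came from was not tested.

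**Figure D4:**
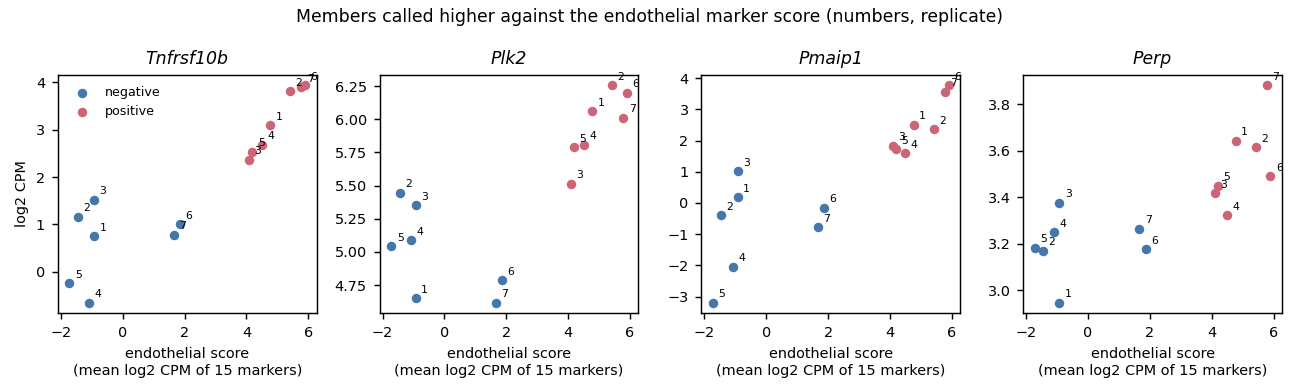
Log2 CPM of the 4 genes that rose (y axes) against the endothelial marker score of the same library (x axes, mean log2 CPM of 15 markers) in negative (blue) and positive (red) libraries, labelled by replicate number. Among the positive libraries Tnfrsf10b climbs with the score in order, while in the negative libraries 6 and 7, with the highest scores of their group, it stays within the range of the other 5.

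Genes most like each called member were sought among 13682 others with an average log2 CPM of at least 1, by the Pearson correlation of deviations from the group means over 14 libraries. For Tnfrsf10b they were Spred1 (r = 0.948), Lats2 (0.942) and Samd4 (0.940), and for Pmaip1 Xdh (0.913) and Ptk7 (0.908). Plk2 was closest to Cav2 (0.853), Actg-ps1 (0.840) and Rin2 (0.834), and Perp to Rnd1 (0.851), Gm5552 (0.841) and Vgf (0.832). Sesn1 was closest to Zscan18 (0.931), Meis1 (0.917) and Unk (0.900). These correlations describe 14 libraries that differed in depth and in cell type markers, also within a group, and no test was made of these correlations.

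The wider p53 response was read from a list of 26 other targets, of which 26 were tested, 3 rose, 1 fell and 22 were not called, with a median log2 fold change of 0.05. Of all genes, 6.4% rose and 1.63% fell. Those that rose were Dram1, a regulator of autophagy, from 0.624 ± 0.366 to 1.75 ± 0.868 CPM (1.48 on the log2 scale), Ckap2, a protein of the mitotic spindle, from 0.581 ± 0.241 to 1.30 ± 0.153 CPM (1.13), and the stress cytokine Gdf15, from 8.38 ± 1.69 to 15.6 ± 6.74 CPM (0.90). Ephx1, an epoxide hydrolase, fell from 47.5 ± 1.67 to 40.7 ± 3.64 CPM (-0.22). Gdf15 was at 21.3 to 23.5 CPM in positive 2, 6 and 7 and at 8.96 to 13.4 CPM in the other 4, and leaving out negative 1, 2, 4, 5 or 6, or else positive 2, 6 or 7, ended its call (adjusted p = 0.0605 to 0.0824 by edgeR). Without the libraries numbered 6 and 7, the 4 genes had log2 fold changes of 1.18, 0.97, 0.59 and -0.20 and none was called (adjusted p = 0.121 to 0.350 by edgeR).

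With the block, 6 of the 26 rose and 2 fell, where 11.8% of all genes rose and 7.77% fell; the share that fell was near that of all genes. The additional ones were Cdkn1a (log2 fold change 0.31), Gadd45a (0.24), both inhibitors of cell division, and Sesn2 as higher, and Ddb2 (-0.25), a sensor of ultraviolet DNA damage, as lower. Ddb2 was also called lower by DESeq2 (adjusted p = 0.0356), and by edgeR with upper quartile factors (0.0452) or without positive 5 (0.0324). Cdkn1a was at 147, 266 and 375 CPM (lowest, median, highest) in negative and 279, 334 and 355 CPM in positive libraries, so that the positive values lay within the negative range. The top of that range was set by negative 3 (375 CPM), above negative 5 (298 CPM). By pair of equal number, Cdkn1a was higher in the positive library in 6 of 7 pairs and lower in pair 3 (log2 ratio -0.08).

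Of the genes for p53 and its regulators, 15 of 17 in the table were tested, 0 rose, 1 fell and 14 were not called (median log2 fold change 0.06), a share near the 8.03% of all genes called in either direction. The 1 that fell was Trp53bp1, a DNA damage response protein, from 155 ± 14.4 to 130 ± 8.86 CPM (-0.25 on the log2 scale, adjusted p = 0.0262 by edgeR; 0.0539 without positive 3 and 0.274 without the libraries numbered 6 and 7). Trp63 and Trp73, the relatives of p53, had 0 and 4 reads over all 14 libraries. Mdm4, the partner of Mdm2, had -0.13 and the kinases Atm, Atr, Chek1 and Chek2 had 0.00, -0.11, 0.07 and 0.51, none called in either fit.

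Among the 23 relatives and partners tested, 3 rose, 0 fell and 20 were not called (median 0.08), against 6.4% of all genes higher and 1.63% lower. Beside the decoy receptors, this was Bcl2l11, which encodes the BH3-only protein Bim, from 26.5 ± 2.44 to 35.0 ± 3.89 CPM (0.40 ± 0.08 on the log2 scale, adjusted p = 0.00325 by edgeR; 0.134 without the libraries numbered 6 and 7). The survival genes Bcl2, Bcl2l1 and Bcl2l2 had 0.03, 0.02 and 0.04, and the pore former Bak1 had 0.19. With the block, 6 rose and 2 fell, against 11.8% and 7.77% of all genes, so that the share that fell was near that of all genes. Casp8 and Mcl1 were among those that joined the genes that rose, and Sesn3 and the BH3-only gene Bmf (-0.27) fell. Bcl2a1b, a survival gene of blood cells, had 0 reads in negative and 100 in positive libraries and was not tested.

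**Figure D5:**
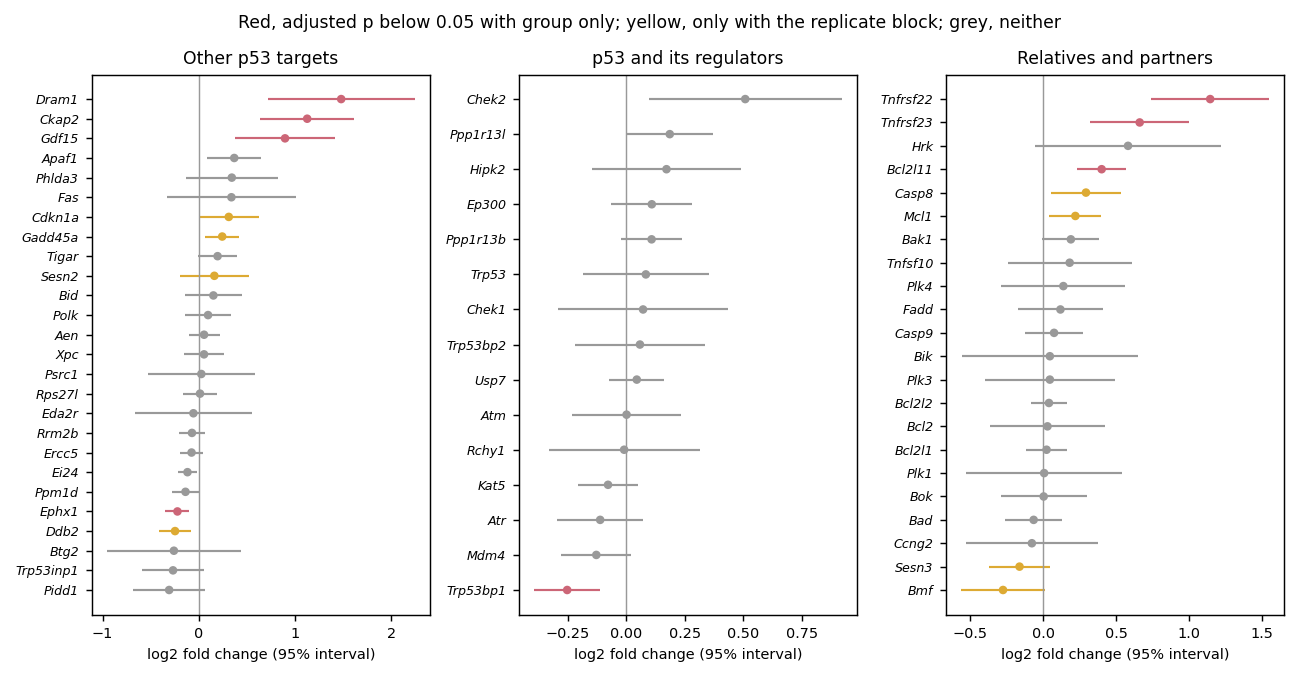
Log2 fold change in positive against negative cells with 95% intervals (x axes) for genes of 3 lists, in order of size. Red genes were called with group only, yellow genes only with the replicate block, and grey genes in neither fit; Dram1 and Tnfrsf22 lead their lists, and most genes lie near 0.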

How the data were processed

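The data were 14 libraries of polyadenylated RNA, sequenced as single reads. Per the submitters' processing notes, the authors aligned reads to GRCm38 with Subread and counted them per gene with featureCounts; for versions, annotation and strand setting, not given in the sources used here, no value is assumed. The deposited table holds raw counts, which were compared with edgeR 4.0.16 (R 4.3.3): filterByExpr, TMM scaling (factors 0.969 to 1.03), robust dispersions and the quasi-likelihood F-test with group as the only term, 16350 genes, Benjamini-Hochberg adjusted p below 0.05, two-sided. The script was tested on simulated data. CPM used TMM-scaled library sizes, and log2 CPM a prior count of 2. TPM used GENCODE M21 exon lengths (91.5% of symbols matched). Libraries sharing a number had correlated deviations from the group means (0.203 to 0.541 in 7 pairs, median -0.125 for other numbers), so numbers, taken from the titles, were treated as pairs in the alternative with a block. No libraries agreed within sampling noise (lowest chi-square per degree of freedom 5.36). Other alternatives were DESeq2 1.42.0, other scalings, no filter and left-out libraries. The members and lists were chosen with earlier results of these data known. Named were the 10 members, Trp53, Cdkn1a, genes of the 3 p53 lists called in either fit, the 3 genes most like each called member, and the 3 most abundant genes of stress lists; genes not called that are named from the lists, and Ier3, Slc7a11 and Ddit4, were chosen after their values were seen. 2 genes that this rule names are not reported here. Intervals and limits cover counting error or library spread only.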

Additional observations from a re-analysis of the deposited data

Results flagged for a closer look

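In each group of 7 libraries, the highest and lowest value of the 10 genes, of Trp53 and of Cdkn1a were compared with the others by the size of the gap (24 groups). In 1 group a library stood far from the rest: Trp53 was at 24.5 CPM in negative 1, with a gap to the next library of 0.577 of the group's range. Chance marks about 1 in 20 groups in this way. The same library was the lowest of its group for Mdm2, Bbc3, Perp, Zmat3 and Cdkn1a, and it had the most reads of the negative libraries, 23045934.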

How the results depend on the processing

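The fit with group only called 1313 of 16350 genes, 1047 higher and 266 lower, and 3457 genes had an unadjusted p below 0.05. With the replicate block 3200 genes were called (1930 higher, 1270 lower), and of the 10 members 1 was called lower, Sesn1. With DESeq2 the counts were 2079, 1602 and 477. Without the libraries numbered 6 and 7 they were 581, 536 and 45; there 2 of the 10 members were called, both higher, and the log2 fold change of Bax was -0.0110. Leaving out 1 library gave 965 to 1883 genes called, 825 to 1267 higher and 140 to 616 lower (616 without negative 3, and 140, 160 and 162 without positive 6, 3 and 7), and 3 to 4 members called. In these fits the log2 fold change ranged from -0.0230 to 0.116 for Mdm2, from -0.0757 to 0.0135 for Zmat3 and from -0.0146 to 0.139 for Trp53, none of them called. With all genes that had at least 1 count, the adjusted p of Perp was 0.0600 and that of Gdf15 0.0740 by edgeR, so both calls ended. RLE and upper quartile factors moved none of the counts of calls by more than 1.5 times, and under RLE factors all 28 genes followed kept their direction and their side of the threshold. The block changed no call among the members other than that of Sesn1. Depth limits Pmaip1 most, with 90 reads over the negative libraries.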
